A study of Homo sapiens with 12 samples.

Results

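Long noncoding RNA (lncRNA) genes were followed through transcriptional kinase inhibition in MOLT4 cells. Of the 5759 genes in the authors' deposited table, 5727 matched a gene of the RefSeq annotation by their gene ID. RefSeq types 259 of these as lncRNA, 258 were kept and 1 is not reported here. The 258 were grouped by their symbols alone: 51 LINC genes, 81 antisense genes (-AS), 27 divergent genes (-DT), 17 small RNA host genes (HG), 35 uncharacterised genes with a LOC symbol and 47 with another name. RefSeq holds 18330 lncRNA genes, and those not listed are not analysed here.

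MOLT4 is an established wild-type T lymphoblast line from an acute lymphoblastic leukaemia, and 12 samples formed 4 groups of 3. Cells of 1 group received DMSO alone and were collected at 6 h. Compound 955 was given at 0.1 µM, with collection at 1 h in 1 group and at 6 h in another. The remaining group received SNS-032 at 1 µM and was collected at 6 h. SNS-032 inhibits cyclin-dependent kinases, among them CDK9, which releases paused RNA polymerase II into elongation. 955 carries SNS-032 as its target-binding part. The design text asks how efficacious and how specific 955 is beside SNS-032. The doses of the 2 compounds differ, and DMSO cells were sampled only at 6 h, so treatment and time in culture cannot be told apart at 1 h. Nothing in the labels says whether the 3 samples of a group came from separate cultures, so the statistics may cover technical spread only.

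Long noncoding RNAs are RNA polymerase II transcripts, with few exceptions, that are capped and often spliced but encode no long protein. Some build nuclear bodies, some are by-products of making small RNAs from their introns, and many start beside or opposite a protein-coding gene and share its promoter region. Their RNAs tend to be less stable and more nuclear than messenger RNAs, and the nuclear exosome and nonsense-mediated decay remove many of them.

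All log2 fold changes, levels and false discovery rates (FDR) given here come from the authors' deposited table. It compares each treated group with DMSO and holds no value per sample. The error printed with a fold change is an implied standard error, the fold change divided by the square root of the authors' F statistic. A gene was past the threshold at an FDR under 0.05 with a log2 fold change of 1 or more in either direction. The table is a selection: 5757 of its 5759 genes, and all 258 lncRNA genes in it, were past the threshold in at least 1 comparison, so the shares below describe listed genes and not the transcriptome. The level is the authors' average log2 CPM over all samples. It had a median of 2.0 in the lncRNA genes and 4.15 in all listed genes, and 63 of the 258 lay under 1. Depth per sample is unknown. The authors' scaling sets the direction of every change. Messenger RNAs of the mitochondrial genome, which another polymerase transcribes, rose on this scale by a median of 0.67 with 955 at 1 h, 2.07 at 6 h and 2.35 with SNS-032 (13 genes, all within 0.42 to 0.73, 1.90 to 2.34 and 2.25 to 2.59). A gene that rose by less than this shift fell relative to the mitochondrial RNAs. Of the T lineage markers 3 of 11 were listed (CD3G, CD4 and CD7, at levels of 7.13, 6.09 and 7.06), and of the B cell and myeloid markers 2 of 6, CD79A among them at 3.94.

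After 6 h of 955, 140 of the 258 lncRNA genes rose and 65 fell, and the median change was 1.23 on the log2 scale. Of all 5759 listed genes 85.3% passed, 35.2% upwards and 50.1% downwards, and the median was -1.03. Of the lncRNA genes 79.5% were past it, 54.3% higher and 25.2% lower. With SNS-032, 132 rose and 98 fell (51.2% and 38% of the 258), with a median of 1.12. The listed genes gave 90.2% past the threshold in that comparison, 37.8% higher and 52.5% lower, with a median of -1.07. After 1 h of 955, 9 rose and 2 fell, which is 3.49% and 0.775% of the lncRNA genes. All listed genes gave 8.44% at 1 h, 0.729% higher and 7.71% lower. The higher share of rises among the lncRNA genes was not tested as a set, and it is present above a level of 1 too: of the 195 lncRNA genes with a level of at least 1, 55.4% rose with each compound, against 33.4% (955) and 36.4% (SNS-032) of the 5319 listed genes above that level. On the mitochondrial scale, with the authors' FDR kept, 18 of the 258 were higher by at least 1 and 80 lower with 955, and 14 and 128 with SNS-032. Of the 140 genes that rose with 955, 83 lay below 0 on that scale, and of the 132 that rose with SNS-032, 89 did.

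The kinds of lncRNA gene differed in their counts. LOC genes had 26 rises and 5 falls with 955 (median 1.53), and 22 and 7 with SNS-032 (median 1.46). Named genes outside the other classes had 30 rises and 11 falls, then 32 and 13, with medians of 1.52 and 1.53. LINC genes had 28 and 11, then 25 and 20, with medians of 1.07 and 0.95. Antisense genes had 41 and 23, then 36 and 33, with a median of 1.03 for both compounds. Divergent genes stood lower than these classes, at 9 rises and 8 falls with 955 and 11 and 15 with SNS-032, with medians of -0.66 and -1.12. Host genes had the lowest medians of the classes, -1.21 and -2.19, with 6 rises and 7 falls, then 6 and 10. Rises were 33.3% and 40.7% of the divergent genes and 35.3% of the host genes with each compound. Falls were 29.6% and 55.6% of the divergent genes, and 41.2% and 58.8% of the host genes. Of all listed genes 35.2% and 37.8% rose and 50.1% and 52.5% fell, with medians of -1.03 and -1.07. Rises in the other classes lay between 44.4% and 74.3%. All of the 6 class medians lie below 0 once the mitochondrial shift is taken off. No test between classes was made.

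**Figure D1:**
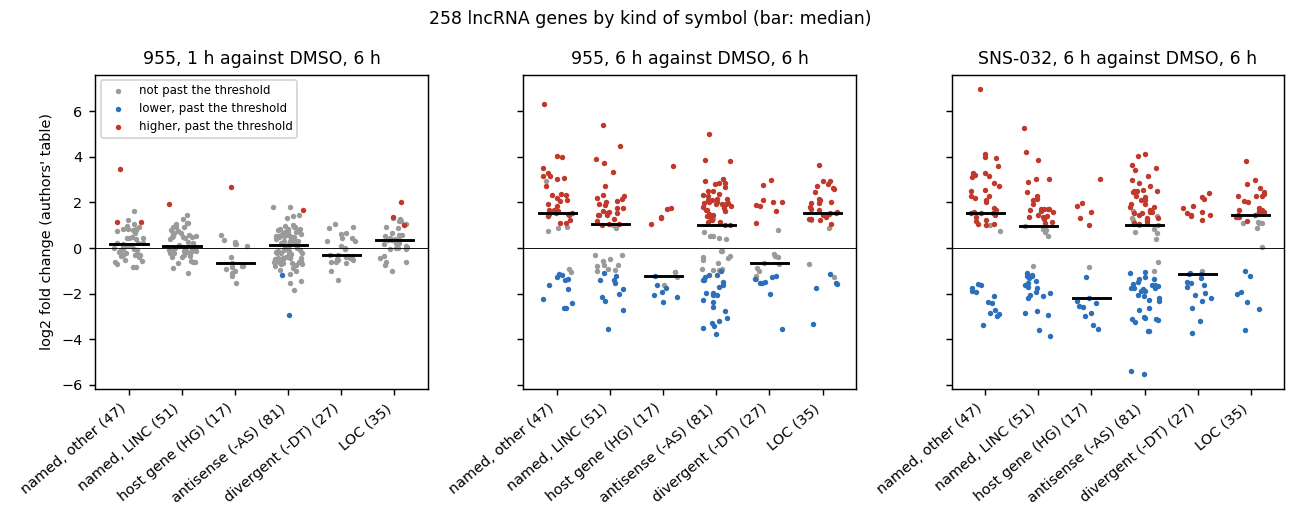
Log2 fold changes of the 258 lncRNA genes against DMSO in the authors' deposited table, by kind of symbol (number of genes in brackets), with 1 panel for each comparison. Each point is a gene, red and blue points are past the threshold, and bars are medians. At 6 h the LOC and other named genes sit mostly above 0 (medians of 1.53 and 1.52 with 955), while the medians of the divergent and host genes are at -0.66 and -1.21. The median over all listed genes with 955 at 6 h was -1.03.

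MALAT1, NEAT1, MIAT and NORAD were the 4 listed genes of the 11 on a list of nuclear body and large regulatory lncRNAs. MALAT1 resides in nuclear speckles, the storage sites of splicing factors. It rose by 3.16 ± 0.49 with 955 (FDR 0.00105) and by 3.30 ± 0.50 with SNS-032 (FDR 0.000802), after 0.73 ± 0.46 at 1 h (FDR 0.672). NEAT1, the scaffold of paraspeckles, lies next to MALAT1 on chromosome 11. It rose by 1.86 ± 0.18 and 1.38 ± 0.18, and stood at -0.21 and -0.97 on the mitochondrial scale. MIAT, a nuclear RNA that binds splicing factors, was among the few lncRNA genes to respond within 1 h. It rose by 1.16 ± 0.27 at 1 h (FDR 0.0303), 3.14 ± 0.28 with 955 at 6 h and 3.20 ± 0.28 with SNS-032. On the mitochondrial scale MALAT1 stood at 1.09 and 0.95 at 6 h, and MIAT 1.07 and 0.85.

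NORAD went the other way. It is a cytoplasmic RNA that sequesters PUMILIO proteins, and it fell by 1.35 ± 0.12 with 955 (log2 fold change -1.35, FDR 2.78e-09) and by 1.64 ± 0.12 with SNS-032 (FDR 9.84e-11). At 1 h it stood at -0.08 ± 0.12. The mRNAs of the paraspeckle proteins did not rise with NEAT1: of 18 on the list 7 were listed, 5 fell with 955, all 7 fell with SNS-032, and none rose, where 50.1% and 52.5% of all listed genes fell. Their medians were -1.36 and -1.48, against -1.03 and -1.07 over all listed genes.

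The promoter windows of MIAT and NORAD are shown because these genes, both without a protein-coding gene at their start, moved in opposite directions. The sequences are RefSeq's, of assembly GRCh38.p14, from 250 bases before to 50 after the annotated start. The submitters' processing notes give the build as hg38, the same primary assembly. Capitals mark matches, on either strand, to CCGGAAG (an ETS family motif), CACGTG (an E-box), the CCAAT box, the letters GGGCGG (an Sp1 motif) or TATAAA. The MIAT window (chr22:26646179-26646478, plus strand) holds no match and has a CpG observed over expected ratio of 0.13. The NORAD window (chr20:36050911-36051210, minus strand) holds 1 E-box and 1 ETS match, with a ratio of 0.78.
MIAT: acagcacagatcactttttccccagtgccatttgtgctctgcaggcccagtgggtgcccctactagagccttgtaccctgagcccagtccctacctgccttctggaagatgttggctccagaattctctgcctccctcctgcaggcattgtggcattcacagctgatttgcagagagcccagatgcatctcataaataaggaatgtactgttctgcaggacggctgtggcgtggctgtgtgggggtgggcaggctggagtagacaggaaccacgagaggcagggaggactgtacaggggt
NORAD: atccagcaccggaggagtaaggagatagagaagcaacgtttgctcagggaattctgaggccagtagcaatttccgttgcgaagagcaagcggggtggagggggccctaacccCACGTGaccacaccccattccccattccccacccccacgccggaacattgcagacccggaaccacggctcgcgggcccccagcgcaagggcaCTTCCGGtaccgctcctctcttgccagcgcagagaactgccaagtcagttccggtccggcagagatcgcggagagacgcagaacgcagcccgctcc

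Promoter windows were on file for 207 of the 258 lncRNA genes. The median CpG ratio was 0.57 in the 111 that rose with 955 and 0.84 in the 58 that fell, against 0.58 over all 27305 windows. Among all listed genes it was 0.79 in those that rose with 955 and 0.86 in those that fell. The ETS letters CCGGAAG stood in 14 of the 58 that fell (24.1%) and in 6 of the 111 that rose (5.41%), against 10.7% of all windows. All listed genes gave 26.2% of those that fell and 11% of those that rose. With SNS-032 the lncRNA shares were 25% of 80 and 5.88% of 102. The Sp1 letters GGGCGG were in 62.1% of the windows of genes that fell and 46.8% of those that rose with 955, and 44.6% of all windows. TATAAA was in 6.9% and 9.01%, CCAAT in 31% and 42.3%, and CACGTG in 10.3% and 9.01%, against 12%, 35.7% and 7.43% of all windows. Over all listed genes the order of the CCAAT shares was the reverse, 41% of those that fell and 33.3% of those that rose, and the GGGCGG shares were 68.1% and 67.7%. For TATAAA they were 5.35% and 8.54%, and for CACGTG 10.9% and 9.24%. These are matches of letters and not binding sites.

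Host genes of small nucleolar RNAs (snoRNAs) split by gene rather than moving together. They are spliced and poorly translated, and their introns release the snoRNAs that guide ribosomal RNA modification. Many belong to the genes whose RNA starts with a run of pyrimidines, as ribosomal protein mRNAs do. SNHG29, SNHG5, SNHG6, ZFAS1 and GAS5, the last named for its accumulation in growth arrest, formed a narrow group that rose. With 955 they rose by 1.35 ± 0.12, 1.72 ± 0.14, 1.74 ± 0.18, 1.53 ± 0.17 and 1.49 ± 0.18, and with SNS-032 by 1.59 to 1.99. At 1 h they stood between 0.08 and 0.34, none past the threshold. On the mitochondrial scale all 5 turned negative, between -0.33 and -0.72 with 955 and between -0.36 and -0.76 with SNS-032.

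The other 6 genes with an SNHG symbol were below 0 at 6 h with both compounds. SNHG16 fell with both compounds, at -2.13 ± 0.42 with 955 (FDR 0.00242) and -3.36 ± 0.45 with SNS-032 (FDR 0.000134). SNHG7, SNHG17 and SNHG3 had log2 fold changes of -1.94 ± 0.48, -1.77 ± 0.24 and -1.64 ± 0.52 with 955, and of -2.86 ± 0.50, -2.55 ± 0.25 and -2.97 ± 0.56 with SNS-032. SNHG3 overlaps the coding gene RCC1 on the same strand (-1.45 and -1.52), so reads in shared exons could belong to either. SNHG12 passed the threshold with 955 (-1.21 ± 0.36, FDR 0.0118) and not with SNS-032 (-0.81 ± 0.36, FDR 0.101). SNHG15 passed it with SNS-032 (-2.19 ± 0.56, FDR 0.0158) and not with 955 (-1.27 ± 0.54, FDR 0.137). Neither difference between compounds was past the threshold in the approximate contrast described further on (adjusted p 0.678 and 0.502).

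The windows around the annotated starts of 9 snoRNA hosts are shown for comparison of the genes that rose with those that fell. Each runs from 25 bases before to 25 after the start in RefSeq's GRCh38.p14 promoter table. Capitals mark the longest run of C and T wherever it lies in the window, before or after the start. For ZFAS1 and SNHG12 that start lies inside the span of the gene record. SNHG29, SNHG5, ZFAS1 and GAS5 rose with both compounds. SNHG3, SNHG7, SNHG16 and SNHG17 fell with both, and SNHG12 with 955.
SNHG29: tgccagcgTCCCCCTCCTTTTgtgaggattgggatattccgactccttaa
SNHG5: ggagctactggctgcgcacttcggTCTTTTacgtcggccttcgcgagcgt
ZFAS1: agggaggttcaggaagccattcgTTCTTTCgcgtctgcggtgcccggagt
GAS5: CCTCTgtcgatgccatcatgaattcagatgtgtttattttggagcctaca
SNHG3: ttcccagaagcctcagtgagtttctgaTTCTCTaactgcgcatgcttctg
SNHG7: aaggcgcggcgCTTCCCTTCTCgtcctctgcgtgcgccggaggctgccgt
SNHG12: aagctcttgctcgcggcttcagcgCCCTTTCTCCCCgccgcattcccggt
SNHG16: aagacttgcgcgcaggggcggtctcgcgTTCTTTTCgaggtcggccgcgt
SNHG17: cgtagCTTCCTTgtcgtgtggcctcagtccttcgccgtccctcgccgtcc
The runs measure 13, 6, 7 and 5 bases in the 4 genes that rose, and 6, 11, 12, 8 and 7 in the others, in the order shown. Those of SNHG29, GAS5, SNHG7 and SNHG17 end before the annotated start, at -5, -21, -4 and -14. They are therefore not part of the annotated RNA, and the lengths are not those of pyrimidine runs at the RNA's start. Runs of at least 6 occurred in 44.3% of all promoter windows at this position, in 38.7% of the lncRNA genes that rose with 955 and in 50% of those that fell. Over all listed genes the order was the reverse, 42.7% of those that rose and 37.4% of those that fell. The windows lie at chr17:16438962-16439011, chr6:85678709-85678758, chr20:49278617-49278666, chr1:173869021-173869070, chr1:28505918-28505967, chr9:136728160-136728209, chr1:28581849-28581898, chr17:76557739-76557788 and chr20:38435304-38435353. SNHG29, ZFAS1, SNHG3 and SNHG16 are on the plus strand and the others on the minus strand.

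**Figure D2:**
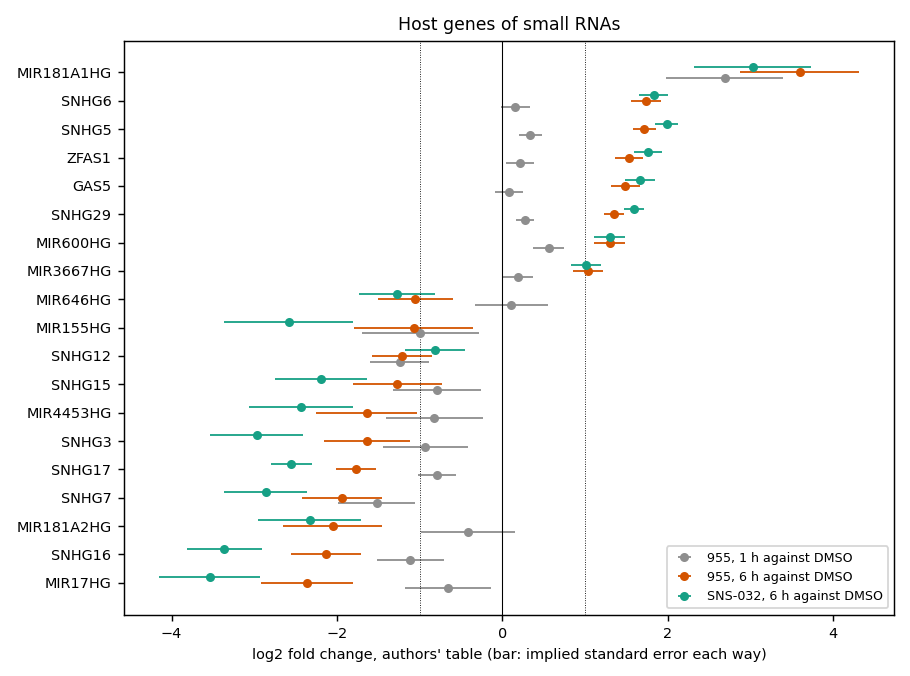
Log2 fold change against DMSO in the authors' deposited table for the host genes of small RNAs, ordered by the value with 955 at 6 h; bars are the implied standard error each way and dotted lines mark the bound of 1. SNHG29, SNHG5, SNHG6, ZFAS1 and GAS5 lie between 1.35 and 1.99 at 6 h with both compounds, while SNHG16 and MIR17HG reach -3.36 and -3.54 with SNS-032.

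Host genes of microRNAs also moved in both directions. MIR17HG, which carries the 6 microRNAs of the miR-17-92 cluster, a growth-promoting cluster under MYC control, fell by 2.36 ± 0.56 with 955 (FDR 0.0018) and by 3.54 ± 0.61 with SNS-032 (FDR 4.81e-05). MYC itself stood at -1.03 at 1 h (FDR 0.0685) and fell at 6 h (-3.07 and -3.53). MIR155HG, host of the lymphocyte microRNA miR-155, stood at -1.07 ± 0.72 with 955 (FDR 0.356) and fell by 2.58 ± 0.78 with SNS-032 (FDR 0.0121). MIR181A1HG and MIR181A2HG, on chromosomes 1 and 9, moved apart although they carry copies of the same microRNAs, which tune T cell receptor sensitivity in thymocytes. MIR181A1HG rose by 2.69 ± 0.71 already at 1 h (FDR 0.0259), then by 3.60 ± 0.72 and 3.03 ± 0.71. MIR181A2HG had -0.41 ± 0.57 at 1 h, and fell by 2.05 ± 0.60 and 2.33 ± 0.62 (FDR 0.0108 and 0.00445). All 4 of these hosts have levels under 1.

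The mature sequences from RefSeq are shown because they tie these hosts together, with the seed (bases 2 to 8) in capitals.
hsa-miR-17-5p: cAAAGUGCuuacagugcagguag
hsa-miR-20a-5p: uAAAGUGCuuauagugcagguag
hsa-miR-18a-5p: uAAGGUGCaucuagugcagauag
hsa-miR-19a-3p: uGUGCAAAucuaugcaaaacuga
hsa-miR-19b-3p: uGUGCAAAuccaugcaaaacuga
hsa-miR-92a-3p: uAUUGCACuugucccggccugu
hsa-miR-181a-5p: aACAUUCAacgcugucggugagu
hsa-miR-181b-5p: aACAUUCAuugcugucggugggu
hsa-miR-155-5p: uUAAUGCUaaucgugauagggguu
Within the cluster in MIR17HG, miR-17-5p and miR-20a-5p share a seed, as do miR-19a-3p and miR-19b-3p. The miR-181a-5p and miR-181b-5p genes lie inside both MIR181 hosts in RefSeq, with identical mature sequences at both loci and 1 seed. MIR181A1HG spans microRNA genes annotated on the minus strand (chr1:198859108-198859130 for miR-181a-5p), and MIR181A2HG spans genes on the plus strand (chr9:124692480-124692502). None of the microRNA genes of these hosts was listed in the table, and the library kit was made for mRNA, so the microRNAs themselves were not measured.

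By annotation rather than by name, 17 lncRNA genes hold a snoRNA gene and 14 a microRNA gene, 1 of them both. The snoRNA hosts had 8 rises and 5 falls with 955 and 9 and 6 with SNS-032 (medians 1.25 and 1.46). The microRNA hosts had 8 and 2, then 8 and 5 (medians 1.27 and 1.19). The 228 genes that hold neither had 124 and 58, then 116 and 87 (medians 1.20 and 1.10). Over all 258 lncRNA genes 54.3% and 51.2% rose, and 25.2% and 38% fell. All listed genes gave 35.2% and 37.8% higher, and 50.1% and 52.5% lower. No test between hosts and other lncRNA genes was made. PWARSN and PWAR5, neighbours in the imprinted Prader-Willi region of chromosome 15 that hold SNORD107, SNORD64 and SNORD108, rose with both compounds. PWARSN rose by 4.03 ± 0.33 and 4.0 ± 0.33, and PWAR5, chosen after its values were seen, by 2.21 ± 0.52 and 2.87 ± 0.53.

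Of 32 lncRNAs on a list linked to T cells or leukaemia 9 were listed, 7 of which rose and 1 fell with 955, and 6 rose and 1 fell with SNS-032. Rises made up 54.3% and 51.2% of the 258 lncRNA genes and 35.2% and 37.8% of all listed genes. NALT1, transcribed beside NOTCH1, rose by 3.02 ± 0.29 and 3.13 ± 0.29, and stood at 0.95 and 0.79 on the mitochondrial scale. LUNAR1, an enhancer-like RNA driven by NOTCH1 in T cell leukaemia, rose by 1.67 ± 0.39 with 955 (FDR 0.00157) and stood at 1.01 ± 0.39 with SNS-032 (FDR 0.0535). PVT1, the neighbour of MYC, rose by 1.39 ± 0.23 and 1.59 ± 0.23 while MYC fell. On the mitochondrial scale PVT1 stood at -0.68 and -0.75. LINC00426 rose by 1.53 ± 0.16 and 1.66 ± 0.16. CRNDE stood at 0.93 ± 0.17 with 955 and rose by 1.03 ± 0.17 with SNS-032, and both it and LINC00426 were negative on the mitochondrial scale. SATB1-AS1, opposite the T cell chromatin organiser SATB1, rose by 2.11 ± 0.48 with 955 (FDR 0.0013) and stood at 1.03 ± 0.48 with SNS-032 (FDR 0.126).

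LINC-PINT and TP53TG1 also rose with both compounds. LINC-PINT rose by 3.32 ± 0.57 (FDR 0.000184) and 3.03 ± 0.56 (FDR 0.000394). TP53TG1 rose by 1.52 ± 0.20 and 1.55 ± 0.20, and was at -0.55 and -0.79 on the mitochondrial scale.

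The lncRNA genes with the largest changes at 6 h among those with a level of at least 1 were mostly not on these lists. SEPT5-GP1BB, a read-through of 2 adjacent genes, rose by 3.45 ± 0.61 at 1 h (FDR 0.001), 6.33 ± 0.60 with 955 at 6 h and 6.98 ± 0.61 with SNS-032. LINC02649 rose by 5.4 ± 0.63 and 5.27 ± 0.63 at 6 h, after 0.52 ± 0.66 at 1 h. LINC01979 rose by 4.49 ± 0.58 and 4.2 ± 0.58, and SNTG2-AS1 by 3.88 ± 0.15 and 4.05 ± 0.15. DIRC3 and LINC00173 rose by 4.01 ± 0.61 and 3.90 ± 0.32 with 955, and by 3.14 ± 0.59 and 3.87 ± 0.32 with SNS-032. Each of these 6 stayed above 0 on the mitochondrial scale at 6 h. BCYRN1, a short RNA made by RNA polymerase III from an Alu-derived gene, rose by 3.52 ± 0.34 and 3.29 ± 0.34 after -0.31 ± 0.34 at 1 h.

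The largest falls at 6 h among genes with a level of at least 1 included LINC02273, at -3.56 ± 0.21 with 955 and -3.86 ± 0.22 with SNS-032 (FDR 5.16e-12 and 1.52e-12). CARD8-AS1 stood at -3.76 ± 0.56 and -3.15 ± 0.54, and LIPT2-AS1 at -3.51 ± 0.69 and -3.10 ± 0.68. LOC101927045 had -3.35 ± 0.82 and -3.58 ± 0.84. PITX1-AS1, opposite the homeobox gene PITX1, had already fallen by 2.92 ± 0.55 at 1 h (FDR 0.00283) and stood at -3.27 ± 0.56 and -3.25 ± 0.56 at 6 h. These falls are larger still against the mitochondrial RNAs.

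At 1 h the 9 rises were SEPT5-GP1BB, MIR181A1HG, LOC105371414, LINC01126, UCKL1-AS1, LOC105369647, MIAT, ST20 and LOC728715, and the 2 falls PITX1-AS1 and ZNF407-AS1. LOC105371414, which lies inside ANKRD11 on the opposite strand, rose by 2.01 ± 0.17 at 1 h (FDR 3.06e-07) and by 2.92 ± 0.17 with 955 at 6 h. UCKL1-AS1 rose by 1.65 ± 0.36 at 1 h (FDR 0.00597), then 1.93 ± 0.36 and 1.95 ± 0.36 at 6 h. LINC01126, beside the mRNA decay factor gene ZFP36L2, rose by 1.93 ± 0.54 at 1 h (FDR 0.0399) and 1.55 ± 0.54 with 955 at 6 h, and stood at 0.52 ± 0.54 with SNS-032. ZNF407-AS1 fell by 1.18 ± 0.28 at 1 h (FDR 0.0141) and by 1.98 ± 0.29 at 6 h. Of the 9 rises, all stayed above 0 at 1 h on the mitochondrial scale and 4 stayed at 1 or more.

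Between 1 h and 6 h of 955, an approximate contrast from the table put 108 lncRNA genes higher and 44 lower at 6 h (41.9% and 17.1%, adjusted p by Benjamini-Hochberg over 5759 genes). All listed genes gave 62.7%, with 27% higher and 35.6% lower. The changes in this contrast came to 4.88 for LINC02649 and 3.96 for LINC01979 among the rises, and to -2.94 for LINC02273 and -2.78 for CARD8-AS1 among the falls. With the mitochondrial shift of 1.40 taken off, 15 were higher and 109 lower. Among the named genes past the threshold of this contrast, the shift turned 6 from higher to below 0: SNHG29, SNHG5, ZFAS1, LINC00426, GARS1-DT and TP53TG1.

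955 and SNS-032 were compared at 6 h by an approximate contrast, the difference of their fold changes against the same DMSO samples. The error was the root mean square of their implied standard errors, and p came from a t distribution adjusted by Benjamini-Hochberg over 5759 genes. The doses differ (0.1 and 1 µM), and the standard error rests on equal spread in all groups. Of the 258 genes 5 passed the threshold, all higher with 955 (1.94%), against 1.11% of all listed genes, 0.851% higher and 0.26% lower with 955. LINC01003 differed by 2.19 ± 0.30 (adjusted p 0.000291): it fell with both, at -1.38 ± 0.28 with 955 and -3.57 ± 0.32 with SNS-032. LEF1-AS1, opposite the lymphoid transcription factor gene LEF1, differed by 1.09 ± 0.27 (adjusted p 0.025), from 1.76 ± 0.27 and 0.67 ± 0.26. LEF1 itself had -1.35 and -0.94.

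TTN-AS1 and URB1-AS1 have levels under 1. TTN-AS1 differed by 2.02 ± 0.48 (adjusted p 0.0229), from 1.41 ± 0.48 with 955 and -0.61 ± 0.49 with SNS-032. URB1-AS1 differed by 2.67 ± 0.60 (adjusted p 0.0165), from -0.42 ± 0.55 and -3.08 ± 0.64. The other 253 did not pass, which does not show that the compounds act alike on them, since the median standard error of a difference was 0.39 and a difference of 1 is then under 3 standard errors. With a standard error that counts the shared control as independent, only LINC01003 passed.

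The promoter window of LINC01003, the gene with the smallest p in this comparison, is shown with that of PITPNA-AS1, which fell the most with SNS-032 of all 258 genes. PITPNA-AS1 was at -3.40 ± 0.65 with 955 and -5.54 ± 0.78 with SNS-032, at a level under 1, and their difference of 2.15 ± 0.72 did not pass (adjusted p 0.129). It was chosen after its values were seen. The LINC01003 window (chr7:152463874-152464173, plus strand) holds 5 GGGCGG, 2 CCAAT and 1 CCGGAAG match. The PITPNA-AS1 window (chr17:1516669-1516968, plus strand) holds 1 CCGGAAG match. Capitals mark the matches on either strand, and the CpG ratios are 0.75 and 1.03.
LINC01003: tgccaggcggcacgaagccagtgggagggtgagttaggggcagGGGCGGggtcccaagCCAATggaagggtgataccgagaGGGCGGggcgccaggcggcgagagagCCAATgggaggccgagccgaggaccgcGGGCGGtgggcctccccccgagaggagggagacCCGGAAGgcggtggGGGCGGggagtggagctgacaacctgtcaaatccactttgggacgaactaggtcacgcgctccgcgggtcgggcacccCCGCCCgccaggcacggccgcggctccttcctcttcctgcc
PITPNA-AS1: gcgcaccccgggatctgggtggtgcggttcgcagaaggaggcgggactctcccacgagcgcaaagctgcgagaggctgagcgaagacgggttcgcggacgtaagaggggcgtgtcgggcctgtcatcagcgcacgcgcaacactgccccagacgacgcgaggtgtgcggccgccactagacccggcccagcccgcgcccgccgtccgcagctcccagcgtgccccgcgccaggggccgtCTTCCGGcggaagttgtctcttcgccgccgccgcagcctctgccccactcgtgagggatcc

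**Figure D3:**
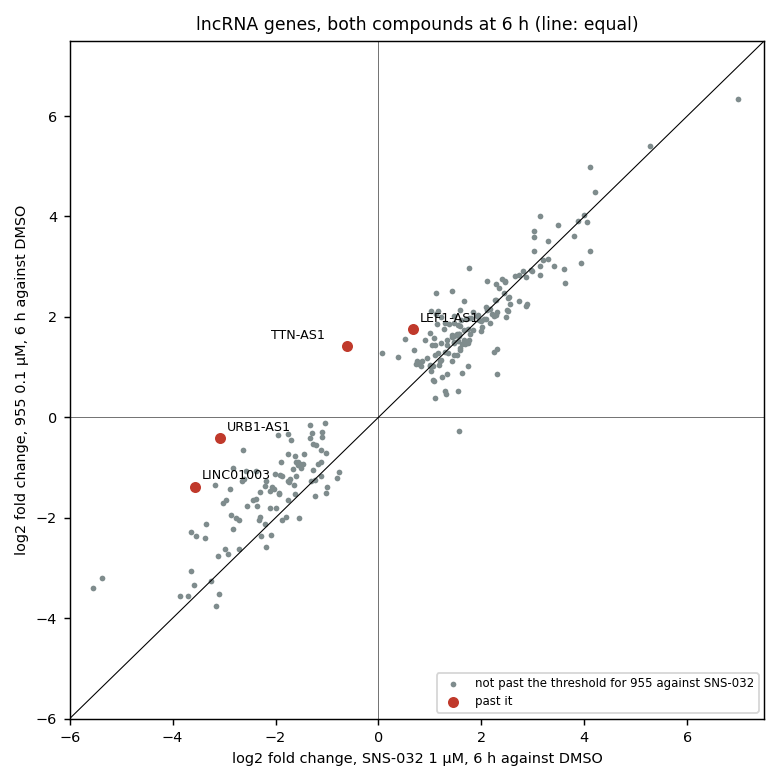
Log2 fold changes of lncRNA genes against DMSO at 6 h, SNS-032 at 1 µM on the horizontal axis and 955 at 0.1 µM on the vertical axis, from the authors' deposited table. The line marks equal values, and both axes share the DMSO samples. The 4 named genes past the threshold for the difference are in red, all above the line, with differences of 1.09 to 2.67.

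The counts differed with the position of the gene relative to coding genes. Positions were taken from RefSeq and the coding genes from GENCODE release 29. The 2 annotations do not always agree on type: ST20 is coding in release 29 and an lncRNA gene in RefSeq. The 85 lncRNA genes that start within 1 kb of a coding gene's start on the opposite strand, as at a shared promoter, had 30 rises and 29 falls with 955, and 30 and 48 with SNS-032. Their medians were -0.65 and -1.31. Of all listed genes 35.2% rose and 50.1% fell with 955, with a median of -1.03. With SNS-032 the listed genes gave 37.8% and 52.5%, with a median of -1.07. The 61 that overlap a coding gene on the opposite strand had 37 and 14, then 34 and 17 (medians 1.48 and 1.42). The 20 that overlap one on the same strand had 17 and 2, then 16 and 2 (medians 1.70 and 1.84). The 13 that begin within 10 kb after a coding gene on its own strand had 10 and 3, then 9 and 3 (medians 1.86 and 1.56). The 69 in none of these positions had 39 and 16, then 37 and 25 (medians 1.12 and 1.11). For 10 genes no strand was on file. None of these differences was tested. The medians are below 0 in every class at 6 h once the mitochondrial shift is taken off.

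**Figure D4:**
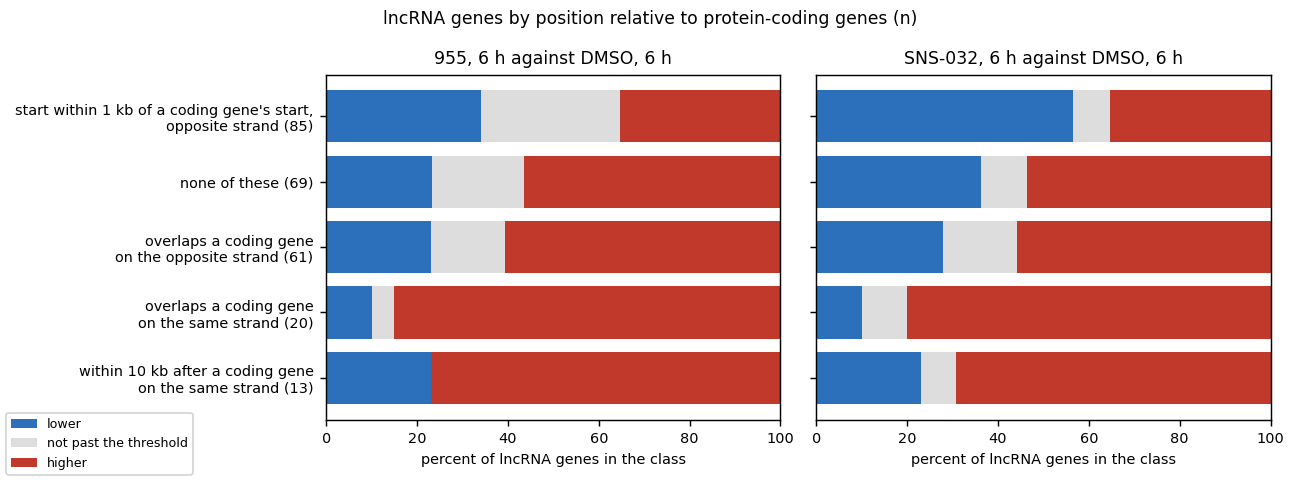
Share of lncRNA genes (percent, number of genes in brackets) that fell, did not pass the threshold or rose at 6 h, by position relative to protein-coding genes, for 955 and SNS-032 in the authors' deposited table. Of the 85 genes that start head to head with a coding gene, 48 fell with SNS-032, while 16 of the 20 that overlap a coding gene on the same strand rose. With SNS-032, 52.5% of all listed genes fell and 37.8% rose.

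Reads of a coding gene can reach an lncRNA annotation on the same strand, and, if strand was not used in counting, also one on the opposite strand. Of the 20 same-strand overlaps 8 have their coding gene listed. The pair rose together in 5 with 955 and in 6 with SNS-032, and fell together in 2 with each. Singly, 35.2% of all listed genes rose and 50.1% fell with 955, and 37.8% and 52.5% with SNS-032. STAG3L5P-PVRIG2P-PILRB, a read-through that ends in PILRB, rose by 2.06 ± 0.14 and 2.21 ± 0.14, and PILRB by 1.69 and 1.88. STX16-NPEPL1 rose by 3.31 ± 0.64 and 4.11 ± 0.66, with STX16 at 2.05 and 1.95 and NPEPL1 at 2.10 and 2.39. LINC01979 begins after TBC1D16, which had 0.79 and 1.01. NEAT1 begins after FRMD8, which fell (-1.45 and -1.41) while NEAT1 rose. These 4 were chosen after their values were seen. How much of the read-through signal comes from the flanking genes was not tested.

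Antisense and divergent genes were paired with the gene in their symbol, which was listed for 35 of 81 and 13 of 27. With 955, 7 antisense pairs rose together, 9 fell together, and in 5 the lncRNA rose while the partner fell. In the remaining 14 either gene did not pass. With SNS-032 the counts were 11, 13 and 2, in 2 more the lncRNA fell while the partner rose, and in 7 either did not pass. Of the divergent pairs none rose together with 955, 4 fell together and 2 had the lncRNA up and the partner down, and with SNS-032 these numbers were 1, 5 and 3. Singly, 35.2% of all listed genes rose and 50.1% fell with 955, and 37.8% and 52.5% with SNS-032. Antisense genes gave 50.6% and 28.4%, then 44.4% and 40.7%, and divergent genes 33.3% and 29.6%, then 40.7% and 55.6%. Whether the pairs depart from what these shares give was not tested. CDK6-AS1, the pair member with the highest level, rose by 1.15 ± 0.20 and 1.22 ± 0.20, while the cell cycle kinase gene CDK6 fell with 955 (-1.03) and stood at -0.52 with SNS-032. TMPO-AS1 fell with TMPO, a nuclear lamina gene, at -1.42 and -2.04 against -1.40 and -1.55. MMP25-AS1 rose with MMP25, at 1.81 and 1.59 against 2.75 and 2.44. STARD4-AS1 stood at 0.53 with 955 and rose by 1.30 with SNS-032, and the sterol carrier gene STARD4 rose by 1.34 and 1.28. SLC25A25-AS1 rose by 1.03 with 955 while SLC25A25 stood at -0.65.

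The pairs that moved apart were looked up after the counts were seen. With 955 they were CDK6-AS1, PCBP1-AS1, LEF1-AS1, PSMD6-AS2 and HCFC1-AS1 among the antisense genes, and GARS1-DT and ZDHHC12-DT among the divergent ones. PSMD6-AS2 rose by 3.01 and 3.41 while the proteasome gene PSMD6 fell (-1.79 and -1.19). PCBP1-AS1 rose by 1.43 and 1.10 while the RNA binding protein gene PCBP1 fell (-2.16 and -2.77). GARS1-DT rose by 2.01 ± 0.27 and 2.24 ± 0.27 while GARS1, a transfer RNA synthetase gene, fell (-1.05 and -1.45). On the mitochondrial scale GARS1-DT stood at -0.06 and -0.11. KDM7A-DT showed the opposite with SNS-032, falling by 1.09 (FDR 0.0364) while the histone demethylase gene KDM7A rose by 2.77. VLDLR-AS1 and VLDLR rose together, by 3.82 and 3.23 with 955. Whether reads were counted by strand is not given in the sources used here, so reads of overlapping partners cannot be told apart.

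**Figure D5:**
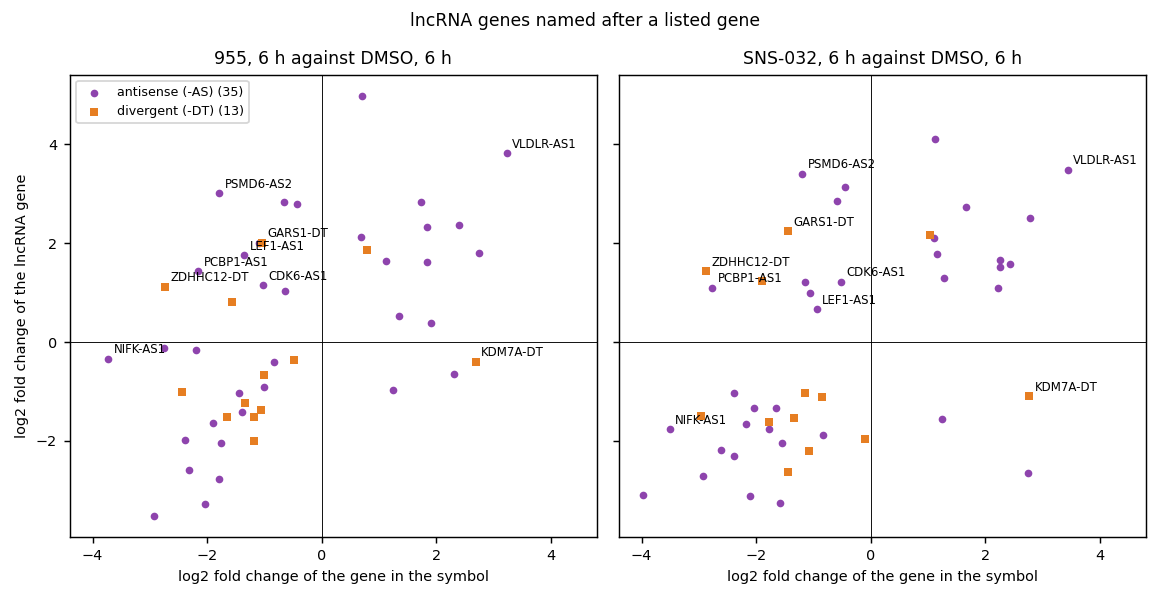
Log2 fold change of 35 antisense (circles) and 13 divergent (squares) lncRNA genes against that of the gene in their symbol, for 955 and SNS-032 at 6 h against DMSO in the authors' deposited table. Points in the upper left are lncRNA genes above 0 with a partner below 0, such as PSMD6-AS2 at 3.01 and PSMD6 at -1.79 with 955.

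Neighbouring lncRNA genes did not always move together. With gaps of at most 100 kb, 35 of the genes formed 16 clusters. With 955 all members rose in 5 clusters and all fell in 2, and 1 cluster held both a rise and a fall. With SNS-032 these numbers were 3, 3 and 4. Singly, 54.3% of the 258 lncRNA genes rose and 25.2% fell with 955, and 51.2% and 38% with SNS-032. All listed genes gave 35.2% and 50.1%, then 37.8% and 52.5%. Whether neighbours shared a direction more often than other lncRNA genes was not tested. The largest, on chromosome 12, has 4 members, LINC00987, LOC642846, LOC728715 and LOC105369647, which all rose with 955, by 1.02, 1.28, 2.58 and 2.92. LINC00987 stood at 0.83 with SNS-032. ITGB2-AS1 rose by 1.65 and 1.78 beside LINC01547, which fell by 1.52 and 1.94, a pair chosen after its values were seen.

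Most listed genes of the factors that remove unstable nuclear RNA fell at 6 h. Of 27 genes of the nuclear exosome and its adaptors 17 were listed. Of these 13 fell with 955 and 14 with SNS-032, none rose, and the medians were -1.25 and -1.16. Of all listed genes 50.1% and 52.5% fell, with medians of -1.03 and -1.07. EXOSC3, a cap subunit of the exosome, fell by 3.21 ± 0.25 and 3.04 ± 0.25. Of 19 nonsense-mediated decay factors 7 were listed. All 7 fell with 955 and 6 with SNS-032, 2 of them already at 1 h, with 6 h medians of -1.99 and -1.98. Whether these falls bear on the lncRNA genes was not tested.

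The gene models of the genes that rose and fell are described here without a test. GENCODE release 29 had a model for 221 of the 258 (85.7%). Exons were counted in the transcript of each gene with the largest summed exon length. That transcript can be one without introns, as for SNHG12 with 1 exon, so the counts are not those of every transcript. With 955 the genes that rose had a median of 3 exons and a median span of 11.3 kb, and those that fell 2 exons and 5.33 kb. With SNS-032 the medians were 4 exons and 12.1 kb, and 2 exons and 5.34 kb. The order of the exon counts was the same over all listed genes. Their median was 9 exons in those that rose and 6 in those that fell, with each compound. Median levels were close, 2.19 and 1.88 with 955.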

How the data were processed

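RNA from 12 MOLT4 samples in 4 groups of 3, assigned by their titles, was sequenced from libraries made with an mRNA kit, per the labels' protocols. The submitters' processing notes name build hg38 and DESeq2, without their role. The aligner, counter, use of strand, annotation and filters are not given in the sources used here. The authors deposited 1 table of 3 comparisons against DMSO. Per the file headers, it holds for each gene a log fold change and an average log CPM, read as log2 values, an F statistic, which is a score of the authors, and a p-value with its FDR, both used as deposited. These columns are not those that DESeq2 writes, so the tool behind them is not known, and every implied standard error rests on reading F as the squared ratio of a fold change to its error. The authors' comparisons took the place of the count tests planned for values per sample. Depth per sample is unknown, so no interval or floor is given.

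Symbols, types and coordinates came from RefSeq GRCh38.p14, and strands, exons and coding genes from RefSeq and GENCODE release 29 (Python 3.11.15, pandas 2.3.3, SciPy 1.17.1). Contrasts between treated groups were differences of 2 fold changes, with the root mean square of both implied errors and the gene's denominator degrees of freedom solved from F and p. They were tried on simulated data with equal spread in all groups, which cannot check the assumption of equal spread in the real samples. The mitochondrial scale subtracts the median fold change of 13 mitochondrial mRNAs. Genes past the threshold have an FDR or adjusted p under 0.05 and a log2 fold change of 1 or more in either direction.

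The lncRNA genes and the lists were chosen with earlier results of these data known. Named genes are the listed members of the 4 lncRNA lists, the 5 largest rises and falls per comparison with a level of at least 1, members past a contrast at that level (5 each way where over 15), the 5 antisense or divergent genes of highest level with a listed partner, and the 5 of highest level in each symbol class. Genes named outside this rule were chosen after their values were seen. Results of some genes and of 1 list are not reported here, and 1 of these genes is not drawn in the plot of both compounds. Read-through genes and near-identical copies (such as LOC100132287 and LOC100132062) may share reads. Alternatives were stricter and looser thresholds, a level minimum, other standard errors, the mitochondrial scale and the leaving out of LOC genes.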

Additional observations from a re-analysis of the deposited data

Results flagged for a closer look

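Among the lncRNA genes 4 are given again here because the effect of 955 differed from that of SNS-032 at 6 h in the approximate contrast (955 minus SNS-032, log2, adjusted over 5759 genes). LINC01003 differed by 2.19, from -1.38 and -3.57. LEF1-AS1 differed by 1.09, TTN-AS1 by 2.02 and URB1-AS1 by 2.67. The doses of the compounds differed (0.1 and 1 µM), and TTN-AS1 and URB1-AS1 have levels under 1. CACNA1C-AS2 is given because its values at 1 h and 6 h of 955 had opposite signs and differed by 4.18 ± 0.56 (adjusted p 4.78e-07). In the authors' deposited table it stood at -1.86 ± 0.58 at 1 h (FDR 0.0755) and rose by 2.32 ± 0.53 at 6 h (FDR 0.0013). Its level is 0.31, and it lies inside CACNA1C on the opposite strand, which rose by 1.84 at 6 h.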

How the results depend on the processing

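No paired analysis was possible because the table holds no value per sample, and for the same reason no fit without a replicate or with a replicate block was run. Under an FDR below 0.05 with no bound on size, 26 lncRNA genes passed at 1 h (21 higher, 5 lower) against 11, and 8 in the contrast of the compounds (1 lower) against 5. With a bound of 2 on the log2 scale, 4 passed at 1 h (3 higher, 1 lower), 90 with 955 at 6 h (64 and 26) against 205, and 113 with SNS-032 (61 and 52) against 230. With a level of at least 1, the contrast of the compounds had 3, all higher. With errors added as if the control samples were not shared it had 1, higher with 955, and the contrast of 6 h with 1 h had 28 lower against 44. The larger of both standard errors and the leaving out of LOC genes, the latter added for the contrasts after seeing the data, left every count within 1.5 times.

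The mitochondrial scale changed the share of rises. With the mitochondrial shift taken off and the authors' FDR kept, 4 rose and 5 fell at 1 h, 98 passed with 955 at 6 h (18 higher) and 142 with SNS-032 (14 higher). With p recomputed on that scale, an alternative chosen after seeing the data, 69 passed at 1 h (4 higher, 65 lower), 135 with 955 at 6 h (13 and 122), and 11 were higher with SNS-032. The contrast of the compounds had 21, all 21 higher, and that of 6 h with 1 h had 15 higher and 109 lower. These named genes, past the threshold on at least 1 of the scales, were above 0 on the authors' scale and below 0 on the mitochondrial scale, at the log2 values given. With 955 at 6 h they were STARD4-AS1 -1.54, LINC02067 -1.20, CRNDE -1.14, LINC00987 -1.05, SLC25A25-AS1 -1.04, MIR3667HG -1.03, CDK6-AS1 -0.92, LOC642846 -0.79, MIR600HG -0.77, SNHG29 -0.72, PVT1 -0.68, GAS5 -0.58, LINC00426 -0.55, TP53TG1 -0.55, ZFAS1 -0.54, LUNAR1 -0.40, SNHG5 -0.35, SNHG6 -0.33, LEF1-AS1 -0.31, MMP25-AS1 -0.26, NEAT1 -0.21, UCKL1-AS1 -0.14 and GARS1-DT -0.06. With SNS-032 they were LEF1-AS1 -1.68, LINC00987 -1.52, SLC25A25-AS1 -1.35, MIR3667HG -1.33, LUNAR1 -1.33, CRNDE -1.31, SATB1-AS1 -1.31, CDK6-AS1 -1.12, MIR600HG -1.04, STARD4-AS1 -1.04, LINC02067 -1.0, LOC642846 -0.99, NEAT1 -0.97, TP53TG1 -0.79, SNHG29 -0.76, PVT1 -0.75, MMP25-AS1 -0.75, LINC00426 -0.68, GAS5 -0.68, ZFAS1 -0.59, SNHG6 -0.51, UCKL1-AS1 -0.40, SNHG5 -0.36, LINC01163 -0.26, LINC01000 -0.17, GARS1-DT -0.11 and LOC729737 -0.06. From 1 h to 6 h of 955, among those past the threshold on the authors' scale, they were LINC00426 -0.34, SNHG29 -0.33, TP53TG1 -0.33, ZFAS1 -0.07, GARS1-DT -0.07 and SNHG5 -0.01. The shift itself is 1 number per comparison and rests on 13 genes. Levels under 1 (63 genes) and the selection of the table limit the other results.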

Other observations

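Some lncRNA genes with a known role were not described above. NRAV, an RNA linked to the antiviral response, fell by 2.62 ± 0.82 with 955 (FDR 0.0362) and by 2.98 ± 0.84 with SNS-032 (FDR 0.0212) in the authors' deposited table, after -0.28 ± 0.75 at 1 h. It overlaps the coding gene DYNLL1 on the opposite strand, and DYNLL1 stood at -3.29 and -3.82. Whether reads of DYNLL1 were counted for NRAV was not tested. BISPR, which starts beside the interferon-induced gene BST2, rose by 1.43 and 1.04, and BST2 by 1.56 and 1.78. DLEU1, from the chromosome 13 region often lost in chronic lymphocytic leukaemia, fell by 1.16 ± 0.30 and 1.87 ± 0.31. OLMALINC rose by 2.34 ± 0.22 and 2.27 ± 0.22, and SCD, the fatty acid desaturase gene it follows, by 1.02 and 1.20. HHIP-AS1 fell by 1.47 ± 0.15 and 2.10 ± 0.15. BISPR, OLMALINC and HHIP-AS1 were picked after their values were seen, except that HHIP-AS1 is also among the antisense genes of highest level.

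Coding genes head to head with an lncRNA gene, paired by position, were listed for 35 of 85. With 955, 3 such pairs rose together, 9 fell together, 7 had the lncRNA up and the coding gene down, and 1 the reverse. With SNS-032 the numbers were 7, 13, 5 and 3. CCDC18-AS1 rose by 2.94 ± 0.17 and 2.97 ± 0.17 while DR1, the transcription repressor gene at its start, fell (-1.22 and -1.15). MRPL20-AS1 fell by 1.98 and 2.31 beside CCNL2, which rose by 1.77 and 1.89, and was chosen after these values were seen. MRPL20, the gene in its symbol, fell with it, at -2.38 with each compound.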
